A study of Homo sapiens with 4 samples.

Results

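Matrix metalloproteinases (MMPs), ADAM and ADAMTS proteases and the tissue inhibitors of metalloproteinases (TIMPs) were followed in H1792, an established cell line from a human lung cancer, after treatment with ACBI1 or with its solvent DMSO. The members were the gene symbols of the count files that consist of MMP, ADAM, ADAMTS or TIMP and a number, with an optional A or B after an MMP number. There were 69 such symbols among 61228 features, made up of 24 MMP, 22 ADAM, 19 ADAMTS and 4 TIMP genes. Members with 10 or more counts in at least 2 of the 4 libraries are reported, which were 43: 12 MMP, 13 ADAM, 14 ADAMTS and 4 TIMP genes. ACBI1 is a PROTAC that recruits the VHL ubiquitin ligase to SMARCA2, SMARCA4 and PBRM1, which are subunits of SWI/SNF chromatin remodelling complexes. Both groups were labelled wild type for genotype, were grown in RPMI medium with serum, and were kept for 96 h with either DMSO or ACBI1. The labels write the ACBI1 dose as 1 mM, and the counts cannot check it. RNA of 2 libraries per group was sequenced from this 1 cell line, and the labels do not say whether replicates were separate cultures, so that p-values measure the spread between these libraries, which may be technical.

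MMPs are zinc-dependent enzymes that cut collagens, fibronectin and other proteins of the extracellular matrix, and they are made as inactive proenzymes. TIMPs bind the active site of MMPs and block it, although TIMP2 also holds the MMP2 proenzyme on membrane-bound MMP14, which starts its activation at the cell surface. ADAMs sit in the cell membrane, where the active ones shed growth factors, receptors and adhesion proteins from the cell. ADAMTS proteases are secreted and bound to the matrix, and they cut proteoglycans, procollagens and other matrix proteins.

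Gene counts summed to 64281850 to 86010100 per library. Across genes, Pearson's r of log2 CPM (counts scaled to library size, per 1e+06) was at least 0.988 within a group and at most 0.963 between groups. The degrader acts on proteins, so target transcripts do not test the labels: SMARCA4 was at 284 and 216 CPM with DMSO and 414 and 398 CPM with ACBI1 (log2 change 0.70, edgeR adjusted p 0.0583), and neither SMARCA2 (0.163) nor PBRM1 (0.734) passed the test by its adjusted p. Epithelial keratins were present (KRT7, KRT8 and KRT18 at 58.7 to 680 CPM, KRT19 at 0.503 to 5.00 CPM). Each of these keratins was called lower with ACBI1 (edgeR adjusted p 0.00753 to 0.0229). CDH1 and all 4 lung epithelial markers examined stayed under 1 CPM, and NKX2-1 had no count. The 5 leukocyte markers were each under 1 CPM, with CD3E at 0. All 5 fibroblast markers examined were detected, and they summed to 356 and 790 CPM with DMSO against 71.7 and 223 CPM with ACBI1. Most of this was COL1A1 (324 and 693 against 62.3 and 210 CPM), which was not called (edgeR adjusted p 0.086). PDGFRB was not called either (0.0967), and DCN, LUM and PDGFRA were called lower. Endothelial markers summed to 12.8 and 49.0 CPM with DMSO, nearly all of it PECAM1, against 0.123 and 0.107 CPM with ACBI1. PECAM1 itself was at 0.0112 and 0.0458 CPM with ACBI1 and was called lower (edgeR adjusted p 0.00431), as was VWF (0.013). KDR was not called (0.109), and CDH5 was at or near 0 in each library. The summed epithelial markers were at 982 and 1035 CPM against 323 and 202 CPM. KRT7 made up most of the sum with DMSO (678 and 680 CPM). With ACBI1, KRT7 was at 179 and 60.3 CPM, which in replicate 2 was less than KRT18 (75.1 CPM). EPCAM was at 5.38 and 2.78 CPM against 15.6 and 4.84 CPM (log2 change 1.32, not called). These summed levels moved with the protease genes described here, and their part in the results was not tested. Fewer cells of a kind and less RNA per cell cannot be told apart in bulk RNA.

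The members that passed the test mostly fell with ACBI1. Of the 43 reported members, all of which entered the test, 17 were called lower and 3 higher, where called means an adjusted p under 0.05 in edgeR's quasi-likelihood test over 19159 genes. Over all genes tested, 10.6% were called lower and 6.75% higher (17.4% in either direction). The members' shares were 39.5% and 6.98%. The median log2 change of the members was -0.85, beside 0.01 over all genes tested. Both ACBI1 libraries lay on 1 side of both DMSO libraries for 31 members, and 63.2% of all genes tested did the same. The count threshold lets a gene in through the group where it is high: ADAM28, ADAM33, MMP19 and MMP23B reached 10 counts in both libraries of 1 group and in neither of the other. Among the other 39 members, 15 were called lower and 3 higher. The fit without ACBI1 replicate 1 called 1379 genes in place of 3331, with 12 members lower and 1 higher, and the fit without ACBI1 replicate 2 called 1807 genes, with 15 members lower and 2 higher.

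**Figure D1:**
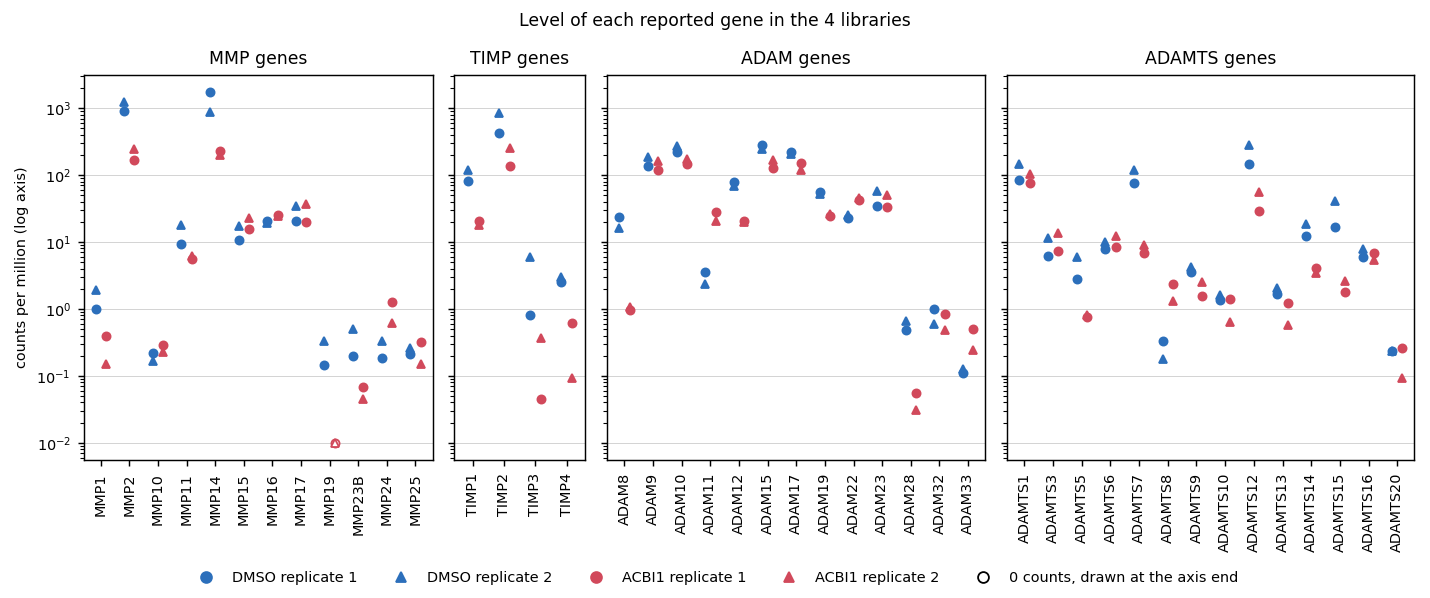
CPM (log axis) of each reported gene in the 4 libraries, by family, with DMSO in blue, ACBI1 in red, circles for replicate 1 and triangles for replicate 2. MMP14, MMP2 and TIMP2 stand highest with DMSO, at 424 to 1741 CPM, and each is lower in both ACBI1 libraries; MMP19 had 0 counts with ACBI1 and is drawn as hollow symbols at 0.01.

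The transcripts of the MMP2 activation complex were the most abundant of the reported members and fell together. MMP14, which encodes the membrane-anchored collagenase MT1-MMP (chr14:22836557-22849027 in GENCODE 29, plus strand), was at 1741 and 884 CPM in DMSO replicates 1 and 2 and at 225 and 199 CPM in ACBI1 replicates 1 and 2. The DMSO libraries differed by more from each other than the ACBI1 libraries did, yet the lower DMSO value stood well above both ACBI1 values. Its log2 change was -2.63 (SE 0.35, edgeR adjusted p 0.00788), a 6.19-fold lower level. MMP2, a gelatinase that cuts denatured collagen and basement membrane collagen (chr16:55389700-55506691, plus strand), was at 901 and 1250 CPM against 166 and 247 CPM. Its log2 change was -2.38 (SE 0.28, adjusted p 0.00607), a 5.21-fold lower level. TIMP2, which bridges the MMP2 proenzyme to MMP14 (chr17:78852977-78925387, minus strand), was at 424 and 847 CPM against 139 and 254 CPM, a log2 change of -1.69 (SE 0.42, adjusted p 0.0421). The call of TIMP2 was lost without ACBI1 replicate 1 (log2 change -1.31, adjusted p 0.126). On a scale that allows genes to be compared, CPM per kb of exon, the order was the same in both groups: MMP14 (294 with DMSO, 47.5 with ACBI1), MMP2 (218 and 41.8) and TIMP2 (113 and 34.9). MMP14 and MMP2 did not differ beyond the spread of their libraries in either group, with ranges of 198 to 390 and 183 to 253 CPM per kb with DMSO.

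The other TIMP genes were also lower with ACBI1, and 3 of the 4 TIMP genes were called lower (75%, beside 10.6% of all genes tested). TIMP1, a secreted inhibitor of most soluble MMPs (chrX:47582313-47586789, plus strand), was at 82.1 and 120 CPM with DMSO and at 20.9 and 18.2 CPM with ACBI1. The groups were well apart, and the log2 change was -2.37 (SE 0.23, adjusted p 0.00384), or 5.15-fold lower. TIMP4 was scarcer, at 2.48 and 2.95 CPM against 0.614 and 0.0915 CPM, with only 6 counts in ACBI1 replicate 2. Its log2 change of -2.90 (SE 0.76, adjusted p 0.0492) stood close to the threshold: leaving out ACBI1 replicate 1 gave -4.86 and leaving out ACBI1 replicate 2 gave -2.15, and TIMP4 was not called when libraries were scaled by size only (adjusted p 0.0515). TIMP3, the inhibitor that binds to the matrix and also blocks ADAM17 and several ADAMTS proteases, was at 0.811 and 6.03 CPM against 0.0447 and 0.366 CPM. The groups did not overlap, but replicates of each group lay far apart, and the log2 change of -4.11 (SE 1.23) was not called (adjusted p 0.0689). The fits without DMSO replicate 1 (log2 change -4.94, adjusted p 0.000254) and without ACBI1 replicate 2 (-6.22, adjusted p 0.0410) called it, whereas that without DMSO replicate 2 gave -2.04 (adjusted p 0.142).

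Of the 12 reported MMP genes 4 were called lower (33.3%, beside 10.6% of all genes tested). Apart from MMP14 and MMP2 these were the scarce transcripts of MMP1 and MMP19. MMP19, called lower, and MMP23B, not called, are among the 12 only through their counts with DMSO, which bears on this share. MMP1, the interstitial collagenase, was at 0.995 and 1.93 CPM with DMSO and 0.391 and 0.153 CPM with ACBI1. Its log2 change of -2.39 (SE 0.59, adjusted p 0.0428) was not called without DMSO replicate 2 (-1.84, adjusted p 0.0838) or without ACBI1 replicate 2 (-1.91, adjusted p 0.114), and was -3.24 without ACBI1 replicate 1. MMP19, a secreted protease of basement membrane proteins, had 12 and 24 counts with DMSO and 0 in both ACBI1 libraries. Set against a floor of 3 counts over the ACBI1 group, its level was at least 12.1-fold lower (edgeR adjusted p 0.0263), and the call was lost without ACBI1 replicate 1 (adjusted p 0.0916) or replicate 2 (adjusted p 0.0616), and without DMSO replicate 2 MMP19 did not pass the filter and was not tested. MMP11, also called stromelysin-3, was at 9.22 and 18.2 CPM against 5.65 and 6.16 CPM; the log2 change was -1.21 (SE 0.36, adjusted p 0.0658), short of a call, but MMP11 was called by DESeq2 (adjusted p 0.00719) and without DMSO replicate 1 (log2 change -1.62, adjusted p 0.00219). MMP23B, at 0.0458 to 0.5004 CPM, was not called (log2 change -2.56, adjusted p 0.0545). It was called without DMSO replicate 1 (-3.08, adjusted p 0.0169) and in the fit on every gene with a count, and its log2 change was -1.75 without DMSO replicate 2. MMP10, a stromelysin, was at 0.167 to 0.290 CPM in the 4 libraries and was not called.

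None of the other 5 MMPs classed here as membrane-bound (MMP15, MMP16, MMP17, MMP24 and MMP25) was called by edgeR. MMP23B, given above, was not put in this class. With MMP14 included, 2 of the 6 had an unadjusted p under 0.05, as had 33.9% of all genes tested. MMP15, MMP16 and MMP17 also sit on the cell surface, and each was above 10 CPM in every library. MMP15 was at 10.7 and 17.4 CPM against 15.7 and 23.2 CPM, with overlapping groups and a log2 change of 0.47 (SE 0.31, adjusted p 0.340). MMP16 was at 20.4 and 19.2 CPM against 24.9 and 24.7 CPM, with a log2 change of 0.33 (SE 0.17, adjusted p 0.219). MMP17 was at 20.7 and 34.5 CPM against 20.03 and 36.4 CPM, with a log2 change of 0.03 (SE 0.36, adjusted p 0.960). The difference between MMP14 and these genes was not tested. MMP24, a membrane-bound protease known from neurons, was at 0.184 and 0.334 CPM against 1.25 and 0.625 CPM (log2 change 1.87, adjusted p 0.0651, and 1.28 without ACBI1 replicate 1), and it was called higher by DESeq2 and without DMSO replicate 2 (log2 change 2.34, adjusted p 0.0498). MMP25 was at 0.153 to 0.324 CPM and was not called. Antisense genes overlap 21.8% of the exonic length of MMP24 and 35.2% of that of MMP25, chiefly MMP24OS (31.2 to 75.6 CPM) and MMP25-AS1 (7.38 to 11.7 CPM); without a stated strand setting the counts of such partners cannot be told apart.

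**Figure D2:**
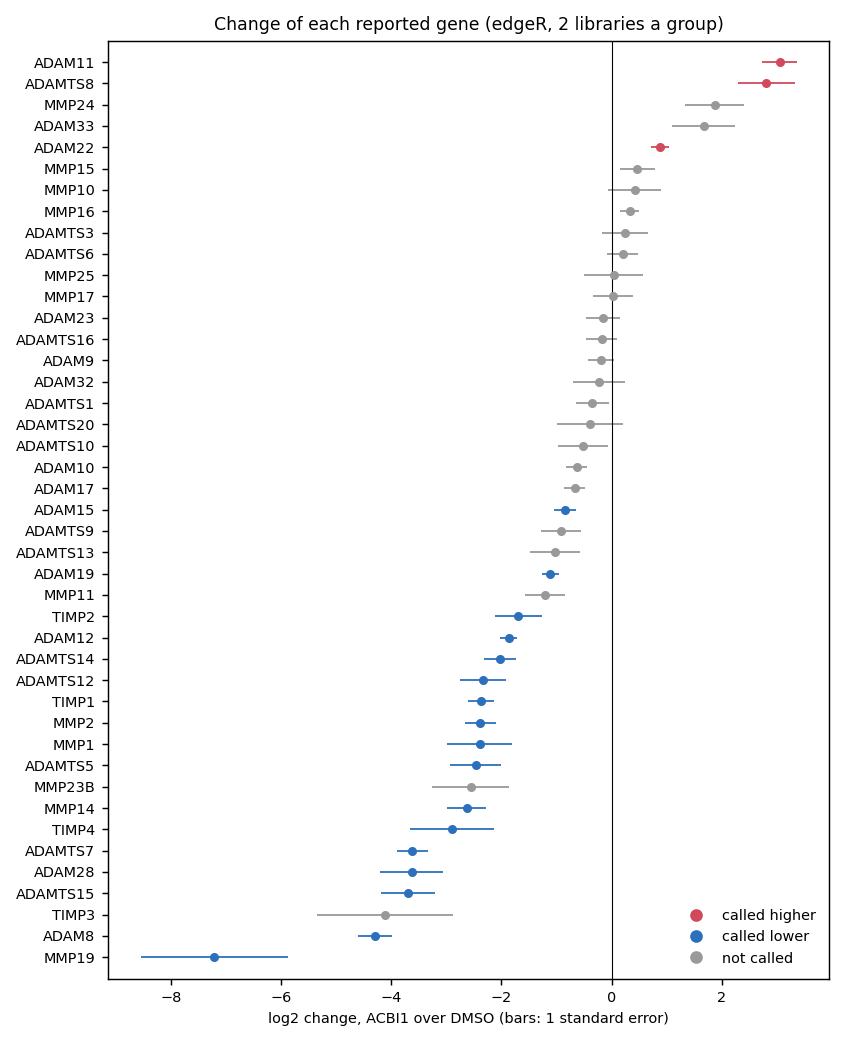
Log2 change of each reported gene, ACBI1 over DMSO, with bars of 1 standard error, sorted by size and coloured by call. The 17 genes called lower run from MMP19 to ADAM15 and the 3 called higher are ADAM11, ADAMTS8 and ADAM22, while the bars of MMP19 and TIMP3 are the longest.

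Summed over its reported members, each family was lower with ACBI1. The 12 MMP genes summed to 585 and 470 CPM per kb with DMSO and to 96.6 and 113 CPM per kb with ACBI1, a 5.04-fold lower mean, and MMP14 and MMP2 made up most of it, 512 of 527 ± 80.7 (SD, n = 2) CPM per kb with DMSO. The TIMP genes summed to 130 and 231 against 38.6 and 57.1 CPM per kb, the ADAMTS genes to 46.2 and 80.9 against 20.1 and 27.8, and the ADAM genes to 126 and 130 against 79.9 and 92.8. The ADAM family had the smallest ratio, 1.48, beside 2.65 for ADAMTS and 3.78 for TIMP. No test was run on these sums, since 2 libraries against 2 allow no exact permutation p under 0.333.

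**Figure D3:**
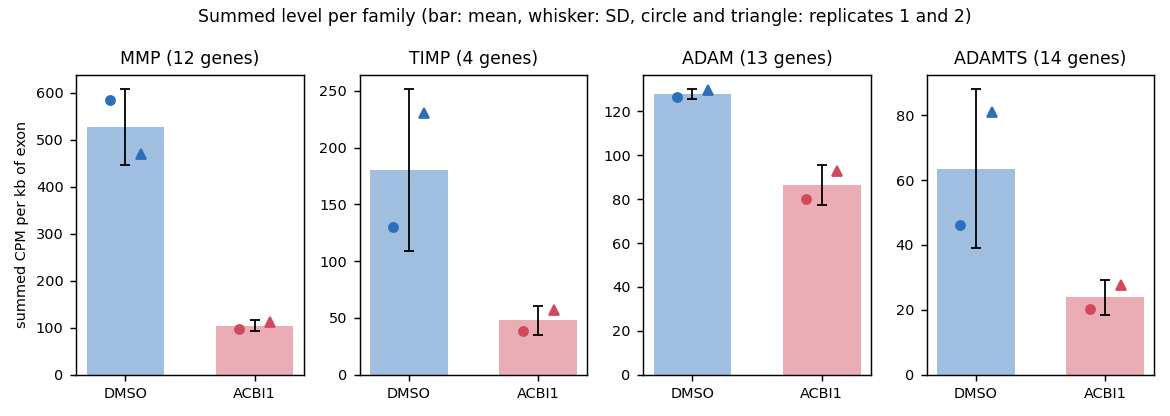
Summed CPM per kb of exon for the reported genes of each family, with bars for the mean, whiskers for the SD (n = 2) and symbols for the libraries. In all 4 families both ACBI1 libraries lie below both DMSO libraries, from 96.6 and 113 against 470 and 585 in the MMP family to 79.9 and 92.8 against 126 and 130 in the ADAM family.

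Among the 13 reported ADAM genes, 5 were called lower (38.5%, beside 10.6% of all genes tested) and 2 higher (15.4%, beside 6.75%). ADAM28, called lower, is among the 13 only through its counts with DMSO, which bears on this share. ADAM33, not called, is among them only through its counts with ACBI1. ADAM8, a sheddase known from leukocytes and invasive tumours (chr10:133262403-133276868, minus strand), showed the largest fall: it was at 23.6 and 16.3 CPM with DMSO and 0.950 and 1.08 CPM with ACBI1, a log2 change of -4.29 (SE 0.31, adjusted p 0.00206), or 19.6-fold lower. ADAM12, a sheddase linked to mesenchymal cells and muscle (chr10:126012381-126388455, minus strand), was at 78.8 and 68.7 CPM against 20.5 and 19.95 CPM, a log2 change of -1.87 (SE 0.16, adjusted p 0.00268). Its replicates were close together in both groups. ADAM19, a meltrin like ADAM12 that sheds neuregulin, was at 56.7 and 51.8 CPM against 24.3 and 26.0 CPM, with a log2 change of -1.11 (SE 0.16, adjusted p 0.00924) that was not called without ACBI1 replicate 1 (-1.05, adjusted p 0.0550). ADAM15, which carries an integrin-binding motif, was at 286 and 248 CPM against 128 and 169 CPM. Its log2 change of -0.85 (SE 0.20, adjusted p 0.0384) was lost without DMSO replicate 1 (-0.74, adjusted p 0.0503), without ACBI1 replicate 1 (-0.65, adjusted p 0.210) and without ACBI1 replicate 2 (-1.07, adjusted p 0.0574). ADAM28, known from lymphocytes and lung tumours, fell from 40 and 47 counts to 5 and 2 counts, a log2 change of -3.63 (SE 0.57, adjusted p 0.0119).

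The 2 best known sheddases were lower but not called. ADAM10, which sheds Notch and cadherins, was at 223 and 274 CPM with DMSO and 146 and 174 CPM with ACBI1. The groups did not overlap, and the log2 change was -0.63 (SE 0.19, adjusted p 0.0708); DESeq2 (adjusted p 0.0353) and the fit without DMSO replicate 1 (log2 change -0.77, adjusted p 0.0345) called it. ADAM17, which releases TNF and ligands of the EGF receptor, was at 222 and 210 CPM against 152 and 119 CPM, with a log2 change of -0.67 (SE 0.19, adjusted p 0.0568). It was called by DESeq2 (adjusted p 0.0177) and when genes under a mean of 5 CPM were left out (adjusted p 0.0491), and 13.6% of its exonic length is overlapped by other genes, chiefly IAH1 on the opposite strand, which was called higher (log2 change 0.63, adjusted p 0.0440). ADAM9, a widely expressed sheddase, was at 138 and 185 CPM against 118 and 164 CPM, with overlapping groups and a log2 change of -0.19 (SE 0.24, adjusted p 0.616).

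The 2 ADAM genes that rose encode proteins without protease activity that act in adhesion and in nerve cells. ADAM11 (chr17:44759031-44781846, plus strand) was at 3.51 and 2.34 CPM with DMSO and 28.2 and 20.3 CPM with ACBI1. It rose 8.27-fold, a log2 change of 3.05 (SE 0.31, adjusted p 0.00424). ADAM22, the synaptic receptor of LGI1 (chr7:87934143-88202889, plus strand), rose from 23.0 and 25.1 to 42.9 and 45.6 CPM, a log2 change of 0.88 (SE 0.16, adjusted p 0.0178). Its call was lost without ACBI1 replicate 1 (0.93, adjusted p 0.0684) and without ACBI1 replicate 2 (0.83, adjusted p 0.0824), with a log2 change that hardly moved. ADAM23, the third member of this subgroup, was at 34.8 and 58.2 CPM against 33.2 and 50.7 CPM, with overlapping groups and a log2 change of -0.15 (SE 0.31, adjusted p 0.781). ADAM32 (0.488 to 0.983 CPM) and ADAM33 (0.111 to 0.503 CPM, log2 change 1.67, adjusted p 0.0951) were rare and not called. The log2 change of ADAM33 was 1.05 without ACBI1 replicate 1.

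Among the 14 reported ADAMTS genes, 5 were called lower (35.7%, beside 10.6% of all genes tested) and 1 higher (7.14%, beside 6.75%). ADAMTS7 and ADAMTS12, sister proteases that cut cartilage oligomeric matrix protein, both fell. ADAMTS7 (chr15:78759203-78811431, minus strand) was at 76.6 and 118 CPM with DMSO and 6.95 and 8.91 CPM with ACBI1, a log2 change of -3.62 (SE 0.28, adjusted p 0.00231), or 12.3-fold lower. Copies of the gene that are annotated as pseudogenes can share reads with it, and ADAMTS7P1, ADAMTS7P3 and ADAMTS7P4 were each listed at no more than 0.348 CPM. ADAMTS12 (chr5:33523535-33892192, minus strand) was at 148 and 280 CPM against 29.5 and 55.6 CPM, a log2 change of -2.33 (SE 0.42, adjusted p 0.0178). With DMSO it was the most abundant ADAMTS transcript per length, at 21.9 CPM per kb, ahead of ADAMTS1 at 16.2, although the ranges of 15.1 to 28.7 and 11.9 to 20.4 CPM per kb overlapped. With ACBI1, ADAMTS1 led at 12.7 CPM per kb and ADAMTS12 was at 4.35.

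The proteoglycan-cutting ADAMTS genes went both ways. ADAMTS15 (chr11:130448974-130476641, plus strand) was at 16.6 and 40.4 CPM with DMSO and 1.79 and 2.64 CPM with ACBI1, a log2 change of -3.69 (SE 0.49, adjusted p 0.00788) that was -2.91 without DMSO replicate 2. ADAMTS5, the main aggrecanase of cartilage, was at 2.76 and 5.95 CPM against 0.760 and 0.808 CPM, a log2 change of -2.47 (SE 0.46, adjusted p 0.0198). Without DMSO replicate 2 its log2 change was -1.82, and without ACBI1 replicate 1 it was -2.42 and not called (adjusted p 0.0628). ADAMTS8 (chr11:130404925-130428993, minus strand) rose from 27 and 13 counts to 209 and 85 counts, or 0.332 and 0.181 to 2.34 and 1.30 CPM. Its log2 change was 2.81 (SE 0.52, adjusted p 0.0189), with the call lost without ACBI1 replicate 1 (2.33, adjusted p 0.0644). ADAMTS1, an aggrecanase and versicanase, was at 84.0 and 144 CPM against 75.6 and 104 CPM, with overlapping groups and a log2 change of -0.35 (SE 0.30, adjusted p 0.459). ADAMTS9 was at 3.50 and 4.18 CPM against 1.55 and 2.50 CPM and was not called (log2 change -0.92, adjusted p 0.130), nor was ADAMTS20, which stayed at or under 0.257 CPM.

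The procollagen N-proteinase ADAMTS14 fell from 12.2 and 18.6 to 4.11 and 3.49 CPM, a log2 change of -2.02 (SE 0.29, adjusted p 0.0102). ADAMTS3, the related protease of type II procollagen and VEGFC, was at 6.21 and 11.5 CPM against 7.34 and 13.7 CPM, with overlapping groups (log2 change 0.25, adjusted p 0.727). ADAMTS6, linked to fibrillin microfibrils, was at 7.79 and 10.1 CPM against 8.46 and 12.1 CPM (log2 change 0.20, adjusted p 0.657), and ADAMTS16 was at 5.98 and 7.92 CPM against 6.81 and 5.43 CPM (log2 change -0.18, adjusted p 0.698). ADAMTS10, at 0.641 to 1.61 CPM, and ADAMTS13, the protease of von Willebrand factor, at 0.580 to 2.06 CPM, were not called either.

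Members that lie side by side in the genome did not always share a call. ADAMTS8 and ADAMTS15 lie on chromosome 11 in opposite orientation, with 20 kb and no other protein-coding gene between them, and ADAMTS8 was called higher while ADAMTS15 was called lower. ADAMTS1 and ADAMTS5 are 72.5 kb apart on chromosome 21, and of these only ADAMTS5 was called. The cluster of 9 MMP genes on the same chromosome as ADAMTS8, from MMP7 to MMP13, held just 2 reported members, MMP1 and MMP10, which are 9.29 kb apart. MMP1 was called lower and MMP10 was not called.

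Promoter windows were searched on both strands for 2 motifs that are known from protease genes. These were TGANTCA, a loose form of the AP-1 site with any middle base, and GGAA, the core bound by ETS factors. RefSeq windows of the 250 bases before the start (GRCh38.p14) matched 25 of the 43 reported members. They covered 10 of the 17 members called lower and 1 of the 3 called higher, and MMP2, MMP1 and TIMP2 had no window. For 20 of the 25, bases shortly after the start were found in a GENCODE 29 transcript of the gene. TGANTCA was in 2 of the 25 windows (8%) and in 6.6% of 27305 promoters of the table, or 4.3% of the 12359 that belong to tested genes. GGAA was in 24 of 25 (96%) and in 92.8% of all (92.6% for tested genes), and the motifs overlapped in 0 of the 25 windows. Those with TGANTCA were ADAMTS12, called lower, and MMP10, not called. Only 9 of the 25 windows were free of GENCODE 29 exons, and that of ADAMTS12 was not: GENCODE places the gene's start further upstream, so that its site lies inside the annotated gene. The sites are printed 5′ to 3′ on the gene's strand with 10 bases on either side and the motif in capitals. Both read TGAATCA. Whether such a site has a part in the change of a member was not tested, and 2 windows are too few to compare.
ADAMTS12 site, chr5:33892058-33892084, minus strand, starting 84 bases before the start: cactgtcagcTGAATCActcccctttt
MMP10 site, chr11:102780679-102780705, minus strand, starting 67 bases before the start: aacacatgcaTGAATCAtactgttggt
A match is a description of letters and shows no binding. The whole windows of ADAM8 and ADAMTS7, the called members with the largest fall among the 9 whose matched window holds no exon of GENCODE 29, and that of MMP10, also free of exons, are printed with both motifs in capitals (GGAA reads TTCC on the other strand) so that their composition can be compared.
ADAM8, chr10:133276869-133277118, minus strand: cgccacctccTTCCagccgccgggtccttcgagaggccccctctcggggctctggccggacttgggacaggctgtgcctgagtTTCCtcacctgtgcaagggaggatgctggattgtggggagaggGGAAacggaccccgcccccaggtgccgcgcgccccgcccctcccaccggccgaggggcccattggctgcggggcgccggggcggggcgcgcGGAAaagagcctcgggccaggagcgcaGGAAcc
ADAMTS7, chr15:78811465-78811714, minus strand: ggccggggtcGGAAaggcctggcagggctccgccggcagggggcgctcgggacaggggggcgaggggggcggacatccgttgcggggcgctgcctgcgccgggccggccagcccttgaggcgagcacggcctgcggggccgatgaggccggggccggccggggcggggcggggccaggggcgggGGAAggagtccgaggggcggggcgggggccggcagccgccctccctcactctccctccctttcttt
MMP10, chr11:102780629-102780878, minus strand: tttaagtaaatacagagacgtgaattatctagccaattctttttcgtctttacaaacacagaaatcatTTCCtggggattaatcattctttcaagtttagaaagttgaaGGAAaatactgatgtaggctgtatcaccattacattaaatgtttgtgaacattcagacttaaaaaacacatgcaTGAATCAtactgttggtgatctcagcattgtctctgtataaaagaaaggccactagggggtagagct
The windows of ADAM8 and ADAMTS7 are rich in G and C (73.6% and 80.8%) and hold GGAA 5 and 2 times, while that of MMP10 has 34.4% G and C and holds GGAA 2 times. MMP10 had the lowest G and C share of the 25 windows. Those of the other members not called ran from 52.4% (ADAMTS6) to 78.4% (ADAMTS10), so that this composition does not separate called members from others.

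Genes that act with these proteases were read from 4 lists. Of the tested genes, the lists in the order below had 23.5%, 50%, 42.9% and 64.7% called lower, beside 10.6% of all genes tested. Called higher were 5.88%, 14.3%, 0% and 0% of them, beside 6.75% of all genes tested. A gene can pass the filter of the test through the group where it is high. DCN, VWF and MMEL1 had fewer than 10 counts in each ACBI1 library, and TLL2 in each DMSO library. In the list of inhibitors, activators and partners, 17 of 18 genes were tested, of which 4 were called lower and 1 higher, with a median log2 change of -0.54. The number called lower was 2 without ACBI1 replicate 1 and 7 in the fit on every gene with a count. PCOLCE, the enhancer of procollagen C-proteinase, fell from 125 and 209 to 27.0 and 31.8 CPM (log2 change -2.51, adjusted p 0.00532), and PCOLCE-AS1 overlaps 16.6% of its exons by length. TFPI2, a serine protease inhibitor of the matrix, fell from 104 and 130 to 40.8 and 43.2 CPM (log2 change -1.48, adjusted p 0.00644). PCSK5, a proprotein convertase, was lower by a log2 change of -1.70 (adjusted p 0.0385), which was -2.29 without ACBI1 replicate 2 and was not called without ACBI1 replicate 1 (-1.27, adjusted p 0.112). TSPAN33, a tetraspanin that escorts ADAM10, rose from 10.97 and 11.05 to 42.5 and 38.3 CPM (log2 change 1.87, adjusted p 0.00309), while the other 5 ADAM10 tetraspanins were not called. RHBDF1, which encodes a rhomboid partner of ADAM17 and is named here after its value was seen, changed by -0.83 on the log2 scale (adjusted p 0.0317) and was not called without DMSO replicate 2 (adjusted p 0.0969), ACBI1 replicate 1 (adjusted p 0.163) or ACBI1 replicate 2 (adjusted p 0.0841). RECK, a membrane-anchored inhibitor of MMP14, MMP2 and MMP9 that is also named after its value was seen, was at 11.1 and 13.2 CPM against 7.69 and 8.86 CPM and was not called (log2 change -0.56, adjusted p 0.150).

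Other secreted or surface metalloproteinases and ADAMTS-like genes had 14 of 19 genes tested, of which 7 were called lower and 2 higher, with a median log2 change of -1.46. PAPPA2, a protease of IGF-binding proteins, fell from 16.1 and 5.73 to 0.715 and 0.122 CPM (log2 change -4.66, adjusted p 0.0204), with values of -3.73 without DMSO replicate 1, -6.45 without ACBI1 replicate 1 and -3.94 without ACBI1 replicate 2. ANPEP, aminopeptidase N, fell from 409 and 258 to 66.3 and 43.8 CPM (log2 change -2.60, adjusted p 0.00651). MMEL1, a relative of neprilysin, fell from low levels (log2 change -3.66, adjusted p 0.0114), 0.405 and 0.445 CPM against 0.0335 and 0.0305 CPM, and was not called without ACBI1 replicate 1 (adjusted p 0.0696) or 2 (adjusted p 0.0538). The tolloid-like proteases were the ones called higher: TLL2 rose by a log2 change of 2.55 (adjusted p 0.0242) and TLL1, named after its value was seen, by 1.80 (adjusted p 0.0224). TLL2 was not called with any library left out (adjusted p 0.0567 to 0.124), nor was TLL1 without ACBI1 replicate 1 (adjusted p 0.0879), so that 0 of the list were called higher without ACBI1 replicate 1.

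Surface proteins that ADAMs shed had 21 of 22 genes tested, of which 9 were called lower and 0 higher by edgeR (12 had an unadjusted p under 0.05, against 33.9% of all genes tested), with a median log2 change of -0.91. DESeq2 and limma-voom also called 0 of them higher, and the fit without DMSO replicate 1 called 1. CX3CL1, the membrane chemokine fractalkine, fell from 122 and 24.3 to 0.413 and 0.0610 CPM (log2 change -8.16, adjusted p 0.00837), with log2 changes of -6.58 without DMSO replicate 1, -8.89 without DMSO replicate 2, -10.18 without ACBI1 replicate 1 and -7.47 without ACBI1 replicate 2. The adhesion receptor gene ICAM1 fell from 216 and 156 to 10.3 and 10.9 CPM (log2 change -4.13, adjusted p 0.00141), and AC011511.5 overlaps 23.6% of its exons by length. TNF, a cytokine released by ADAM17, fell from 3.77 and 3.32 to 0.212 and 0.244 CPM (log2 change -3.95, adjusted p 0.00361). BTC, a ligand of the EGF receptor, fell from 3.61 and 1.89 to 0.603 and 0.336 CPM (log2 change -2.54, adjusted p 0.0236) and was not called without ACBI1 replicate 2 (-2.20, adjusted p 0.0652).

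Matrix substrates of the MMP and ADAMTS proteases had 17 of 22 genes tested, of which 11 were called lower and 0 higher by edgeR (12 had an unadjusted p under 0.05, against 33.9% of all genes tested), with the lowest median of the 4 lists, a log2 change of -1.95. DESeq2 and limma-voom also called 0 of them higher. VWF, the substrate of ADAMTS13, had 47 counts with DMSO and 0 with ACBI1, at least 15.8-fold lower against a floor of 3 counts over the group (adjusted p 0.0130), and was not called without ACBI1 replicate 1 (adjusted p 0.0513). DCN, which encodes the proteoglycan decorin, fell from 3.68 and 7.55 to 0.0447 and 0.107 CPM (log2 change -6.24, adjusted p 0.00425), with -5.64 without DMSO replicate 2 and -6.93 without ACBI1 replicate 2. COL1A2 fell from 646 and 1189 to 16.5 and 48.4 CPM (log2 change -4.82, adjusted p 0.00731), with -4.23 without ACBI1 replicate 1 and -5.81 without replicate 2. BGN, for biglycan, fell from 36.0 and 46.7 to 10.95 and 2.52 CPM (log2 change -2.61, adjusted p 0.0400), with -4.03 when ACBI1 replicate 1 was left out and -1.93 when replicate 2 was. DCN and COL1A1 also stand among the fibroblast markers and VWF among the endothelial ones, whose summed levels are given above. The transcripts of the ADAMTS substrates VCAN (3.57 to 3.93 CPM, log2 change 0.03, adjusted p 0.945), BCAN and NCAN were not called, and COMP had no count; these 4 are named after their values were seen.

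**Figure D4:**
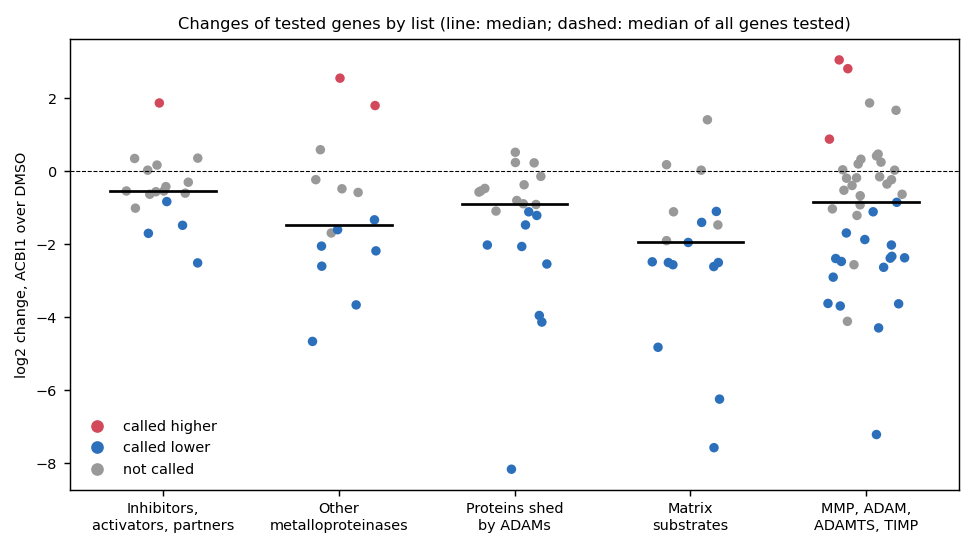
Log2 change, ACBI1 over DMSO, of each tested gene in the 4 lists and of the 43 reported MMP, ADAM, ADAMTS and TIMP genes, coloured by call, with a line at each median. The medians run from -0.54 for inhibitors, activators and partners to -1.95 for matrix substrates and lie at -0.85 for the reported genes, below the dashed line at 0.01 for all genes tested.

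The other 26 of the 69 members were under the reporting threshold and none entered the test. No count at all was seen for 11 of them: ADAM2, ADAM7, ADAM18, ADAM29, ADAM30, ADAMTS2, MMP20, MMP26, MMP27 and the pseudogenes ADAM5 and ADAM6. This allows up to 0.0335 to 0.0458 CPM per library, for counting error only. The other 15 had at most 22 counts in a library. They included MMP9, the second gelatinase, with 12 and 2 counts in the DMSO libraries and 9 and 0 in the ACBI1 libraries, and MMP7, matrilysin, with 6 and 11 against 1 and 0. MMP3, MMP8 and MMP12 each had 1 count in DMSO replicate 1 and none elsewhere. Just outside the threshold lay MMP13 (3 and 17 counts against 2 and 0), ADAMTS4 (7 and 14 against 5 and 3), ADAM21 (5 and 3 against 22 and 6) and ADAMTS19 (6 and 0 against 13 and 1). Just inside it lay MMP10 (18 and 12 against 26 and 15), ADAMTS20 (19 and 17 against 23 and 6) and ADAM33 (9 and 9 against 45 and 16). MMP23A, a pseudogene and near copy of MMP23B, had at most 3 counts, and reads that fit both copies can be lost or split between them. Genes on the opposite strand overlap part of the exonic length of several called members: TMEM198B for MMP19 (17.4%), SYN2 for TIMP4 (10.3%), AC022966.1 for TIMP2 (10.0%) and WTAPP1 for MMP1 (7.61%). Their reads cannot be told apart without a stated strand setting.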

How the data were processed

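The authors deposited raw counts of reads per gene symbol for 4 libraries, in the layout of htseq-count. TopHat2 2.1.1, HTSeq 0.11.0 and the build hg38 are named per the submitters' processing notes; the annotation, the strand setting and all options are not given in the sources used here. The 5 lines for reads given to no gene (13.9% to 15.4% of all reads listed) were left out.

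Genes were filtered with filterByExpr (min.count 10, min.total.count 15); 19159 genes passed, including all 43 reported members, scaled by TMM and tested two-sided with edgeR 4.0.16 in R 4.3.3 (glmQLFit, glmQLFTest) on treatment alone, with Benjamini-Hochberg adjustment over all genes. CPM use TMM-scaled library sizes. The SE is the log2 change divided by the square root of F. Fits that leave out 1 library assume that the lone library of a group varies like the other group. Alternatives were DESeq2 size factors, library size only, no filter or a mean of 5 CPM, the replicate block, DESeq2 1.42.0, limma-voom (limma 3.58.1) and a threshold of 0.01. Group and replicate came from the sample titles. Positions, exonic lengths and overlaps came from GENCODE 29 (GRCh38), matched by symbol for all 69 members; the annotation behind the counts may differ. All reported members are named; a list gives its called genes of largest absolute change, up to 4, and others are marked as picked after their values were seen. The members, lists and naming rule were chosen with earlier results of these data known. A planned split of ADAM genes by a protein motif was not run. The scripts were tested on simulated data.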

Additional observations from a re-analysis of the deposited data

How the results depend on the processing

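The number of genes called (3331) was 5518 with every gene that had a count, 7909 with the replicate block and 783 at a threshold of 0.01, and ranged from 1379 to 4292 with 1 library left out. Members called lower (17) were 8 at a threshold of 0.01 and 12 to 20 with 1 library left out. Members called higher (3) were 5 with every gene that had a count, 6 with the replicate block, 1 at a threshold of 0.01 and 1 to 4 with 1 library left out. All 20 called members were kept under DESeq2 size factors, the fit on every gene with a count, the replicate block, DESeq2 and limma-voom, and 19 of them with library size only, which lost TIMP4. The fit on every gene with a count also called ADAM10, ADAM17, ADAM33, MMP11, MMP23B, MMP24 and TIMP3. A minimum mean of 5 CPM kept 14 and removed the other 6 from the test. No called member changed direction under any of the alternatives run. Log2 changes that crossed 0 belonged to members or targets that were not called: with 1 library left out, ADAM23 ranged from -0.49 to 0.27 (0.14 without ACBI1 replicate 1), ADAM32 from -0.69 to 0.17 (0.09 without ACBI1 replicate 2), ADAM9 from -0.46 to 0.03, ADAMTS1 from -0.68 to 0.09, ADAMTS16 from -0.37 to 0.03, ADAMTS20 from -1.33 to 0.12, ADAMTS3 from -0.28 to 0.75 (-0.13 without DMSO replicate 1), ADAMTS6 from -0.09 to 0.45, MMP17 from -0.47 to 0.45 (-0.29 without DMSO replicate 1), MMP25 from -0.62 to 0.45 (-0.12 without DMSO replicate 1) and PBRM1 from -0.04 to 0.25. MMP25 was also at -0.03 with limma-voom and at -0.0011 with the replicate block. The cause of these moves was not tested.

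Replicate numbers are not tied to a batch or day in the labels. Over the tested genes, the deviations of same-numbered libraries from their group means had a correlation of 0.518 (log2 of CPM plus 0.5). With only 2 pairs, this value cannot tell whether the libraries were paired by design. The replicate block called 7909 of the 19159 genes tested in place of 3331, so that a rise in the counts below is not particular to the members or lists. With the replicate block 24 members were called lower, among them ADAM10, ADAM17, MMP11 and TIMP3, and 6 higher, among them MMP15 and MMP24. MMP23B was among those called lower (adjusted p 0.0105). In the list of inhibitors, activators and partners the block called 9 lower and 3 higher in place of 4 and 1, and in that of shed surface proteins 15 lower and 1 higher in place of 9 and 0. Depth limits the members under 1 CPM, where a few reads decide the value.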

Other observations

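Within a library, the summed level of the reported MMP genes over that of the TIMP genes, both in CPM per kb of exon, was 4.49 and 2.04 with DMSO and 2.5 and 1.97 with ACBI1. The groups overlapped, so that no difference in this ratio stood out from the spread between replicates. The ratio of MMP2 to TIMP2 on the same scale was 2.43 and 1.69 with DMSO and 1.36 and 1.11 with ACBI1, and that of MMP14 to MMP2 was 2.14 and 0.781 against 1.5 and 0.891. No test was run on these ratios.

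Of the 43 reported members, 18 were higher in replicate 2 than in replicate 1 in both groups, among them MMP2, MMP17, TIMP2, TIMP3, ADAMTS7, ADAMTS12 and ADAMTS15. The share over all genes tested was not computed, so the count is not read as a trait of the members. Over those genes the deviations of same-numbered libraries had a correlation of 0.518.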
